A study of Mus musculus with 35 samples.

Results

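The genes that encode the chains of collagens and laminins were examined in single cells labelled as peritoneal macrophages. They were taken as all gene symbols made of Col, a type number, the letter a and a chain number, or of Lama, Lamb or Lamc and a number. The rule found 55 symbols in each of 3 count tables, 44 of collagens and 11 of laminins, among 32285 genes in the lactate table and in the technique table and 35624 in the AZD3965 table. 45 of the 55 had a count in at least 1 of the 35 cells and 16 had one in each of the tables. The 10 without any count were Col2a1, Col6a4, Col6a5, Col7a1, Col8a2, Col9a2, Col10a1, Col11a2, Col13a1 and Lamb3.

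The study combined the metabolome and the transcriptome of the same cell (scMeT-seq), using primary macrophages from the abdominal cavity of male C57BL/6 mice aged 6 months. In the lactate experiment, 8 cells were kept with 10 mM lactate over 72 h and 8 were labelled as untreated controls. Fewer control cells than that entered a published plot of this experiment, and which were left out is not given in the sources used here. In the AZD3965 experiment, 5 cells received 10 mM lactate with 300 nM AZD3965, an inhibitor of the lactate transporter MCT1, and 5 received 10 mM lactate alone. In the technique comparison, 4 lactate-treated cells went through scMeT-seq, which draws off cytoplasm before lysis, whereas 3 lactate-treated and 2 control cells were lysed whole. The animal and the culture behind each cell are not named in the labels. Cells were therefore not taken as replicates, no test over cells was run, and the intervals below cover counting error only.

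Collagens are built from 3 chains wound into a triple helix. Type I collagen, made from the products of Col1a1 and Col1a2, forms the fibrils of connective tissue, and type IV collagen, whose most common chains come from Col4a1 and Col4a2, forms the sheet of basement membranes. A laminin is a trimer of an alpha, a beta and a gamma chain in those membranes, and fibroblasts and mesothelial cells are known as main producers of such matrix. Lyz2 encodes lysozyme, an abundant product of macrophages.

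Promoter windows were available for 40 of the 55 genes, and those of 4 genes on which the results turn are shown (RefSeq, GRCm38.p6, each 300 bases). Col4a1 (minus strand, chr8:11312777-11313076) and Col4a2 (plus strand, chr8:11312555-11312854) lie head to head, with 21 bases between their annotated starts. They are shown because their windows share 78 bases, which are in capitals.
Col4a1: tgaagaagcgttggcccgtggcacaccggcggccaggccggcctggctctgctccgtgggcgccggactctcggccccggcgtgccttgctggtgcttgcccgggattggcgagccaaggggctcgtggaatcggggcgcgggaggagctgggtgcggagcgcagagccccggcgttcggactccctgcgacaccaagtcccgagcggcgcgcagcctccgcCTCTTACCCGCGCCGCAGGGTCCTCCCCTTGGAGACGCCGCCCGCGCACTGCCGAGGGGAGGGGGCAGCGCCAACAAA
Col4a2: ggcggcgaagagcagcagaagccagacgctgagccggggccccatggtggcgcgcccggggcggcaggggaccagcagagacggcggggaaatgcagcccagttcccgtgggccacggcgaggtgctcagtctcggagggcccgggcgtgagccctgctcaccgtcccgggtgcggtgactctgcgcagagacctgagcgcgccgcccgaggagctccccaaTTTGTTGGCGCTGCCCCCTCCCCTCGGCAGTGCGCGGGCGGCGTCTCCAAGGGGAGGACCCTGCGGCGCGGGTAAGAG
Col1a2 (plus strand, chr6:4505368-4505667) and Col18a1 (minus strand, a start at chr10:77166481-77166780 and another at chr10:77113656-77113955) are shown for the chain with the most counts in the AZD3965 cells and for a chain found in many cells with few fibroblast markers. Capitals mark CCAAT and GGGCGG on either strand.
Col1a2: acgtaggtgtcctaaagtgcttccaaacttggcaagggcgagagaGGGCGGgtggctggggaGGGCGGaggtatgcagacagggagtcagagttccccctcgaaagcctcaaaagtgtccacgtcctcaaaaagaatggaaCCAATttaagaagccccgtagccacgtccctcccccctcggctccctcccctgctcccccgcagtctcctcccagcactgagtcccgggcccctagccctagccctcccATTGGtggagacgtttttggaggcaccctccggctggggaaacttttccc
Col18a1, upstream start: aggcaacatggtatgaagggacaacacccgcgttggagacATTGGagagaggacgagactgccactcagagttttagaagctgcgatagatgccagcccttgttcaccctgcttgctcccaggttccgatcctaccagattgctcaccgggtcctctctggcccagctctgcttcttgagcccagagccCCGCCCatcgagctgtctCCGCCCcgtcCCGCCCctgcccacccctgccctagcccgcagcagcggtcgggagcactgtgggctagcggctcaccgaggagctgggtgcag
Col18a1, downstream start: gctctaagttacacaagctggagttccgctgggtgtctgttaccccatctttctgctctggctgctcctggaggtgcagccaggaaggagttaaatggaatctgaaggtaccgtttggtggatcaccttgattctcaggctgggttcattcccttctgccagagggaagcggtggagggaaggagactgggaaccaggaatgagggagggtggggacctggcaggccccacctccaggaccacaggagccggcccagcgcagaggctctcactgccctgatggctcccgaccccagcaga
CCAAT or its reverse complement occurred in 14 of 44 windows of chain genes (31.8%) and in 37.4% of all 32851 promoter windows of that length. GGGCGG or its reverse complement occurred in 26 of the 44 windows (59.1%) and in 35.7% of all windows. These matches describe letters, and binding was not measured.

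The total counts per cell lay between 269393 and 459859 in the lactate table, 58444 and 175450 in the AZD3965 table and 494520 and 851417 in the technique table. A count of 3 in the summed control cells of the lactate experiment equals 1.02 CPM (counts per 1000000 counts of the cell or group). Macrophage markers were checked in each cell: 13 to 18 of 18 had a count, and their sum was between 29481 and 124366 CPM in 34 of the cells. The exception was the control cell CTL32, with a macrophage sum of 1257 CPM, Lyz2 at 1049 CPM and no count for Adgre1, Csf1r or Cd68, which go against its label. Fibroblast markers, a list of 18 genes without collagens or laminins, reached 21320 CPM in this cell, 1696% of its macrophage markers. Fibroblast markers were 12.8% of macrophage markers in the control cell CTL30, 44.6% in the lactate+AZD cell W14, 5.91% in the lactate cell Lactic29 and 4.85% in the lactate cell W5. In each of the other 30 cells they were at most 2.06%. These 5 cells are named below as the fibroblast-marker-rich cells. The limit of 3% was set after the data had been seen, so their comparison with the other cells is a description.

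Chain counts lay mainly in those 5 cells. CTL32 held 65.8% of all chain counts of the lactate table, and CTL32, Lactic29 and CTL30 together held 96.5%. W14 and W5 held 96.3% of those of the AZD3965 table. The summed chain level was 3859 CPM in W5, 8232 CPM in CTL30, 8344 CPM in W14, 8379 CPM in Lactic29 and 39637 CPM in CTL32. In the other 30 cells it was 0 to 519 CPM, with a median of 81.4 CPM. The 2 sets of cells did not overlap in this level. CTL32 spent 3.96% of its counts on these genes. The number of different chains was 10 to 25 in the 5 cells, with a median of 22, and 0 to 16 in the other cells, with a median of 3.5.

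**Figure D1:**
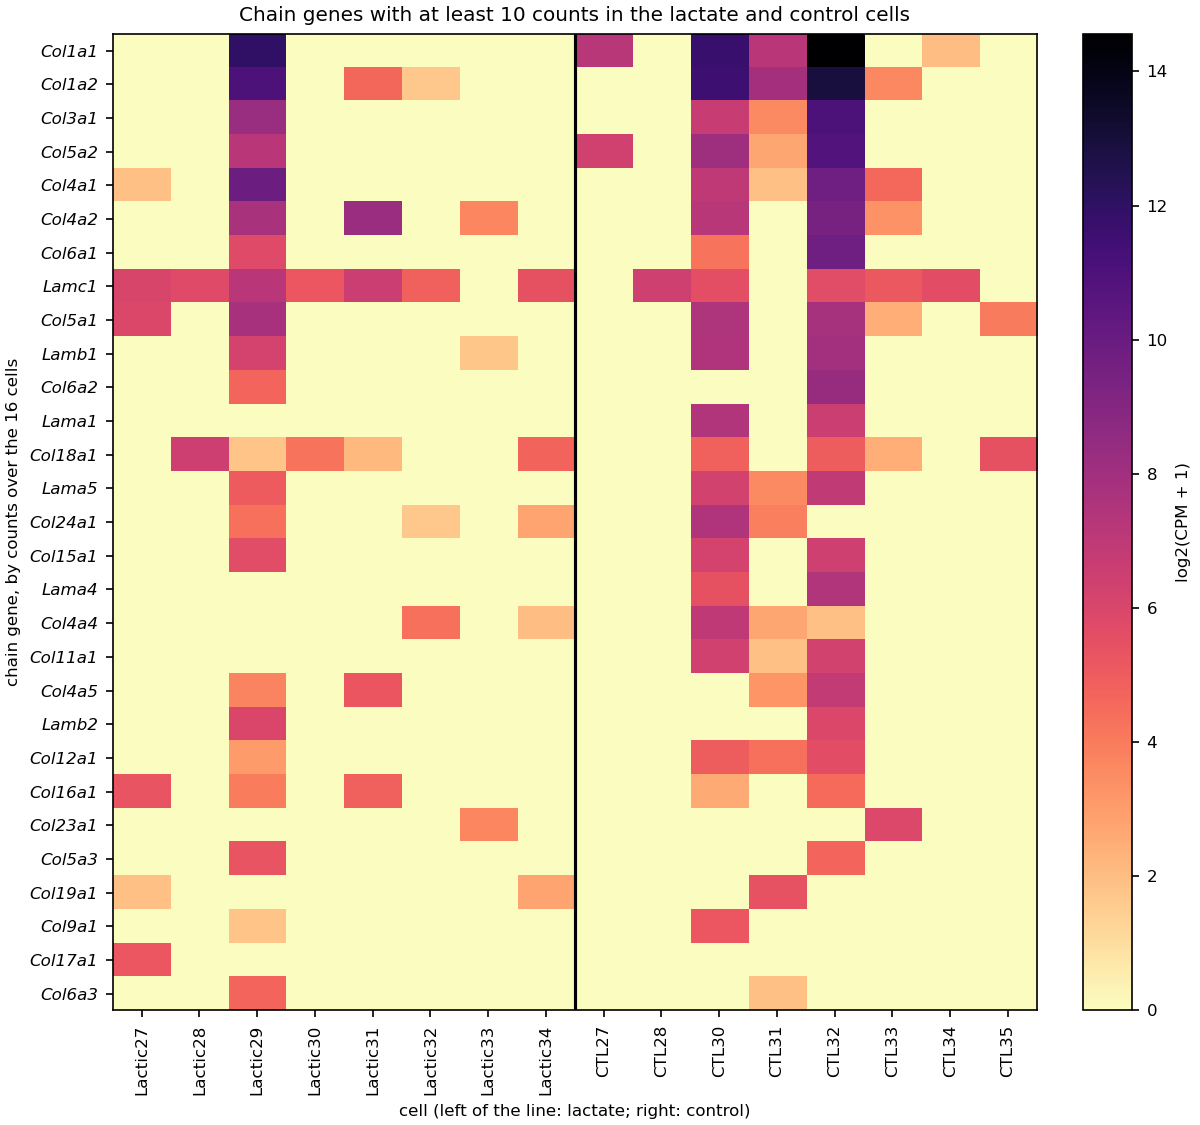
Each row is a chain gene with at least 10 counts over the 16 cells of the lactate experiment and each column a cell, with lactate cells on the left and control cells on the right; colour gives log2(CPM + 1). Lactic29, CTL30 and CTL32 hold most rows, whereas Lamc1 is spread over 12 of the 16 cells.

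Lyz2 differed among these cells. It was 1049 CPM in CTL32, 25998 CPM in CTL30, 27501 CPM in Lactic29, 21936 CPM in W14 and 91289 CPM in W5. The other 30 cells had 21713 to 100538 CPM, with a median of 44123 CPM. W5 thus had many chains beside a Lyz2 level near the top of the range, and CTL32 had nearly none of it. Across the 16 cells of the lactate table, the Spearman coefficient of the summed chain CPM with Lyz2 CPM was -0.56, and over the 13 cells without the 3 fibroblast-marker-rich ones it was -0.18. The number of chains in a cell gave -0.85 with Lyz2 CPM over the 16 cells and -0.72 over the 13. It also gave 0.71 and 0.52 with the number of genes detected in the cell. With detected genes it gave 0.43 over the AZD3965 table, -0.01 there without W14 and W5, and 0.53 over the technique table. Over the 10 cells of the AZD3965 table the coefficient with Lyz2 was -0.30 for summed CPM and -0.08 for the number of chains, and over the 8 cells without W14 and W5 it was -0.43 and -0.04. Over the 9 cells of the technique table it was 0.37 and 0.18. Both values of a cell come from 1 library and share its total. Whether such a library came from 1 cell or from several, or carried RNA of another cell, was not tested.

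**Figure D2:**
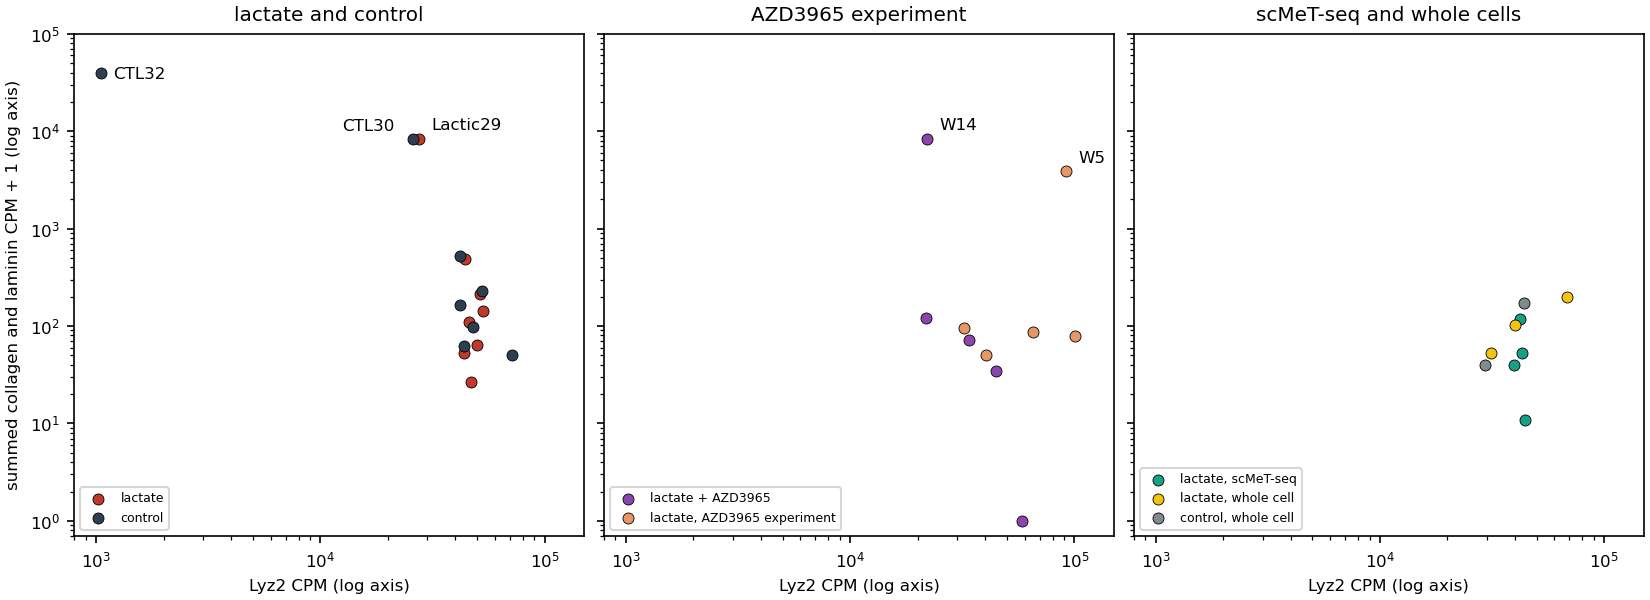
Each point is a cell, with Lyz2 CPM on the horizontal log axis and the summed collagen and laminin CPM plus 1 on the vertical log axis, coloured by group. The 5 labelled cells lie at or above 3859 CPM and the other 30 at or below 519 CPM.

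Fibrillar collagens made up most of the chain counts in the rich cells. Col1a1 and Col1a2 together were 71.6% of the chain counts in Lactic29, 76.6% in CTL30, 80.1% in CTL32, 67.2% in W14 and 73.2% in W5. Fibrillar collagens also led in some cells with few fibroblast markers, with all 61 chain counts in CTL27, 78.8% of the chain counts in CTL31 and 77.6% in Lactic5. The values that follow are of the lactate experiment. Col1a1 (chr11:94936224-94953042, plus strand) was found at 3979 CPM in Lactic29 and in no other lactate cell of that experiment. Among the control cells its lowest value was 0, its median 71.5 and its highest 24180 CPM, in CTL32, with 3287 CPM in CTL30. Col1a2 (chr6:4504814-4541544, plus strand) was at 2020 CPM in Lactic29, at 24.2 and 2.17 CPM in Lactic31 and Lactic32 and at 0 in the other lactate cells, against a lowest value of 0 and a highest of 7557 CPM in control cells. The groups overlapped for both genes. Col3a1, a fibrillar collagen of soft tissue, had 125 counts in lactate cells, all in Lactic29, against 778 in control cells, 734 of them in CTL32.

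In the lactate experiment the minor fibrillar chains followed, with exceptions. Col5a2, a chain of the type V collagen that is built into type I fibrils, had 58 counts in Lactic29, against 642 in CTL32, 108 in CTL30, 22 in CTL27 and 2 in CTL31. Its partner Col5a1 had 88 counts in Lactic29 and 22 in Lactic27, against 82 in CTL32, 74 in CTL30, 5 in CTL35 and 2 in CTL33. Col5a3 was found with 16 counts in Lactic29 against 9 in CTL32. Col11a1, best known from cartilage, had none in lactate cells, against 32 counts in CTL30, 28 in CTL32 and 1 in CTL31. Col24a1 had 8 counts in Lactic29, 2 in Lactic34 and 1 in Lactic32, against 71 in CTL30 and 5 in CTL31, so that CTL32 lacked it. Among the fibril-associated chains, which bind to the surface of fibrils, Col12a1 had 3 counts in Lactic29, against 17 in CTL32, 12 in CTL30 and 7 in CTL31. Col9a1 had 1 count in Lactic29 against 14 in CTL30. Col19a1 lay outside the rich cells, with 2 counts in Lactic34 and 1 in Lactic27 against 15 in CTL31. The transmembrane chain Col23a1 did too in this experiment, with 5 counts in Lactic33 against 25 in CTL33, but W14 of the AZD3965 experiment had 4.

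Basement membrane chains went with them in the lactate experiment. Col4a1 (chr8:11198423-11312826) was at 933 CPM in Lactic29 and 2.80 CPM in Lactic27, against 853 CPM in CTL32, 126 CPM in CTL30, 22.9 CPM in CTL33 and 2.75 CPM in CTL31. Col4a2 (chr8:11312805-11449287) was at 206 CPM in Lactic29, 298 CPM in Lactic31 and 11.6 CPM in Lactic33, against 703 CPM in CTL32, 147 CPM in CTL30 and 9.17 CPM in CTL33. Lactic31 had 86 counts of Col4a2 and none of Col4a1. The annotated genes overlap only at their starts, chr8:11312805-11312826, and the sources used here do not state whether strand was used in counting. Lamb1, the beta chain of the most widespread laminins, was at 71.0 CPM in Lactic29 and 2.33 CPM in Lactic33, against 244 CPM in CTL32 and 177 CPM in CTL30. Lama1, an alpha chain known from early embryonic basement membranes, had no count in lactate cells, against 67 counts in CTL30 and 33 in CTL32. Lama4, an alpha chain of blood vessel walls, had none in lactate cells either, against 61 counts in CTL32 and 17 in CTL30. Lama5, the most widespread alpha chain of adult tissue, had 13 counts in Lactic29, against 43 in CTL32, 31 in CTL30 and 4 in CTL31. Lamb2, another beta chain, had 26 counts in Lactic29 against 22 in CTL32. Of the other type IV chains, Col4a4 had 9 counts in Lactic32 and 1 in Lactic34, against 49 in CTL30, 2 in CTL31 and 1 in CTL32, and Col4a5 had 11 in Lactic31 and 5 in Lactic29, against 40 in CTL32 and 3 in CTL31. Col15a1, a collagen of basement membrane zones, had 20 counts in Lactic29, against 30 in CTL32 and 28 in CTL30. Collagen VI chains, which form beaded filaments, were also concentrated: Col6a1 had 22 counts in Lactic29, against 306 in CTL32 and 7 in CTL30, and Col6a2 had 10 in Lactic29 against 114 in CTL32.

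Partner chains were then looked for in the same cell. Col1a1 and Col1a2 were both present in 7 of the 35 cells, Col1a1 alone in 2, Col1a2 alone in 4 and neither in 22. Col4a1 and Col4a2 were both present in 7 cells, with 4 and 3 cells holding only the first or only the second. Col5a1 and Col5a2 were both present in 5 cells, which were the 5 fibroblast-marker-rich ones. Lamb1 and Lamc1 shared the same 5 cells, yet Lamc1 without Lamb1 was found in 21 cells. The 3 collagen VI chains Col6a1, Col6a2 and Col6a3 occurred together only in Lactic29.

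The ratio of partner counts differed from cell to cell. Its intervals take each count as a separate draw, although amplified copies of a molecule are counted too. Whether the balance of molecules differed between cells was not tested. The ratio of Col1a1 to Col1a2 counts was 1.97 in Lactic29 (95% exact binomial interval 1.81 to 2.14), 1.09 in CTL30 (1.00 to 1.18) and 3.20 in CTL32 (3.06 to 3.34). It was 0.289 in W14 (0.244 to 0.343) and 2.07 in W5 (1.66 to 2.58). W14 therefore had fewer Col1a1 than Col1a2 counts, and W5 more. Per kilobase of annotated exon (6563 bases for Col1a1 and 12426 for Col1a2, over all transcripts), the ratio was 0.548 in W14 and 3.91 in W5. For Col4a1 to Col4a2 the count ratio was 4.54 in Lactic29 (3.57 to 5.82), against 1.21 in CTL32 (1.02 to 1.44) and 0.862 in CTL30 (0.579 to 1.28).

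**Figure D3:**
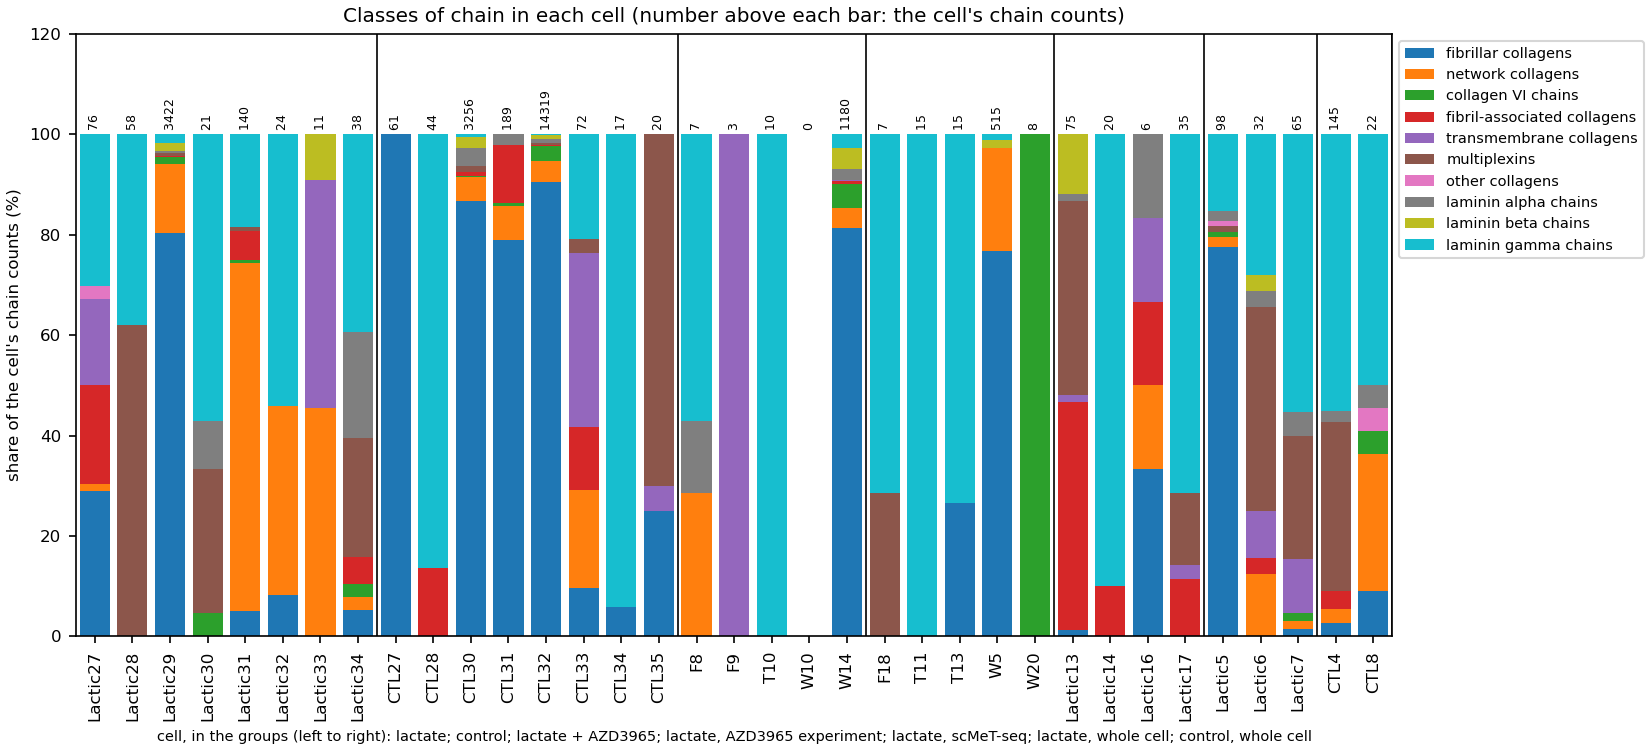
Each bar is a cell, split by the share of its chain counts in each class of chain, with the number of chain counts above it and groups parted by lines. Fibrillar collagens are the largest class in Lactic29, CTL30, CTL32, W14 and W5 and also in CTL27, CTL31, Lactic5 and, from 2 counts, Lactic16, and W10 has no chain count.

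Lamc1 and Col18a1 showed another distribution. Lamc1 (chr1:153218922-153332786, minus strand), the gamma chain shared by most laminins, had a count in 26 of the 35 cells and in 21 of the 30 cells with few fibroblast markers. In the lactate experiment it was at 0 to 142 CPM with a median of 48.3 CPM in lactate cells, against 0 to 84.5 CPM with a median of 39.9 CPM in control cells. The groups overlapped. Its CPM was 68.4, 0, 70.8, 0 and 77.8 in the lactate+AZD cells F8, F9, T10, W10 and W14, against 55.2, 94.2, 62.7, 45.0 and 0 in the lactate cells F18, T11, T13, W5 and W20. These also overlapped. Col18a1 (chr10:77052178-77166548, minus strand), which encodes the collagen that gives rise to endostatin, had a count in 16 cells, 13 of them among the 30. In the lactate experiment its highest level was 87.9 CPM in Lactic28, against 43.0 CPM in CTL35 among the control cells. In the AZD3965 experiment it had no count in lactate+AZD cells, against 2 counts in the lactate cell F18. The exact Poisson interval of the lactate+AZD group reaches up to 6.35 CPM.

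**Figure D4:**
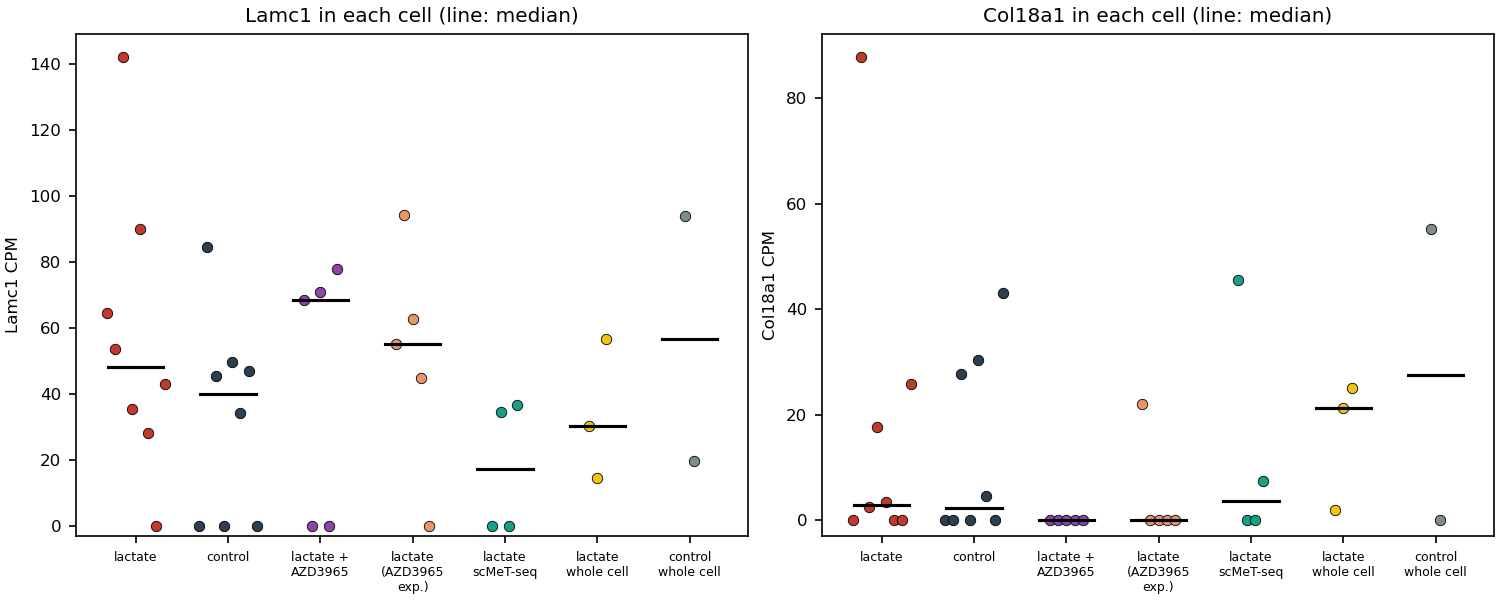
Each point is a cell, with Lamc1 CPM on the left and Col18a1 CPM on the right for the 7 groups; lines are medians. Lamc1 lies between 0 and 142 CPM and Col18a1 between 0 and 87.9 CPM, and the groups overlap.

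Lactate cells were compared with control cells by the summed counts of each group. The chains added up to 3790 counts or 1247 CPM (exact Poisson interval 1207 to 1287) in lactate cells, against 17978 counts or 6110 CPM (6021 to 6200) in control cells, a log2 ratio of -2.29 (-2.34 to -2.24). The value rested on single cells. Without CTL30 and CTL32, which hold fibroblast or mesothelial markers of 10% or more, the log2 ratio was 2.76 (2.61 to 2.91), and without Lactic29 as well it was -0.40 (-0.61 to -0.19). Leaving out CTL32 alone, whose markers go against its label, gave -0.19, and leaving out Lactic29 alone gave -5.45. The fibroblast markers moved alongside, at 609 CPM in lactate cells against 3479 CPM in control cells, while macrophage markers were at 71148 CPM and 63508 CPM. Smooth muscle and pericyte markers were at 106 CPM against 1017 CPM, mesothelial markers at 8.55 CPM against 88.0 CPM and endothelial markers at 11.5 CPM against 12.6 CPM. Of 13 fibroblast markers with at least 10 counts, 11 were more than 2-fold lower and 0 higher, beside 22.0% and 15.1% of all genes. Dcn went the other way, at 232 CPM against 171 CPM. In the summed cells, fewer cells with such markers and less RNA per cell cannot be told apart.

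Of the 29 chains with at least 10 counts, 19 were more than 2-fold lower in lactate cells and 3 more than 2-fold higher, beside 22.0% lower and 15.1% higher among all 11506 genes with such counts. Over 50% of the counts came from 1 cell for 21 of the 29 chains (72.4%), beside 18.1% of all genes. The median log2 ratio was -2.37 for the chains and -0.09 for all genes. Without the 3 rich cells, 14 chains kept at least 10 counts, of which 6 were lower and 7 higher, beside 18.3% lower and 19.9% higher among 10477 genes. The 3 higher chains were Col16a1, Col17a1 and Col6a3, with 28, 13 and 10 counts in lactate cells against 10, 0 and 1 in control cells. All counts of Col17a1 came from Lactic27 and all lactate counts of Col6a3 from Lactic29. Lamc1 had 169 counts in lactate cells against 105 in control cells, a log2 ratio of 0.64 (0.28 to 1.00).

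**Figure D5:**
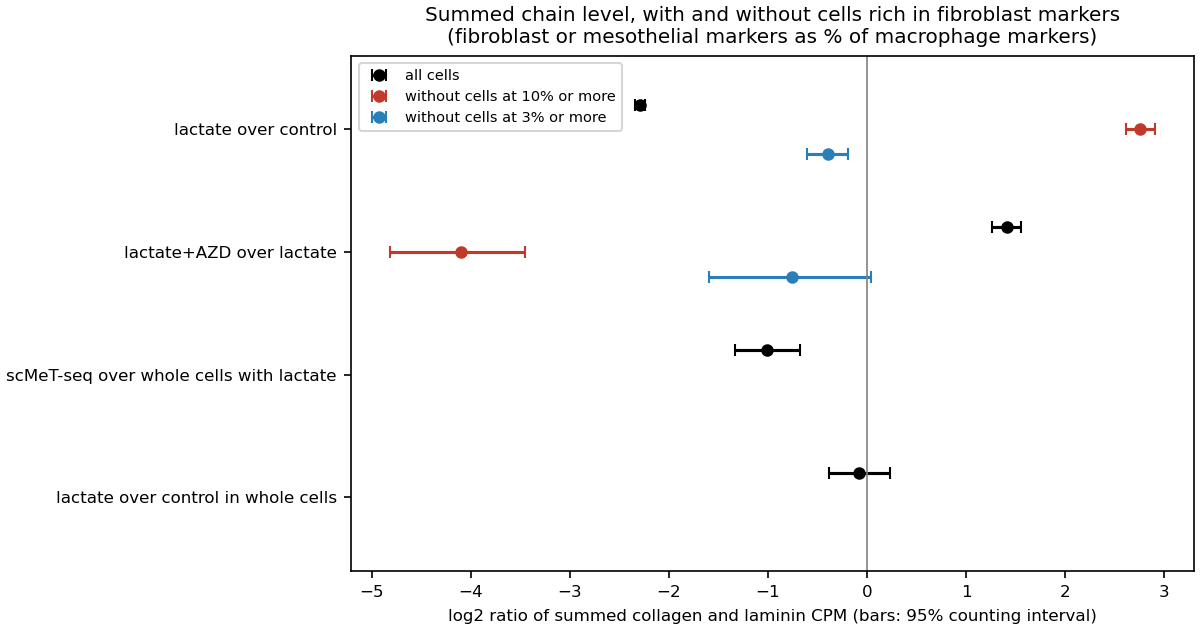
Points give the log2 ratio of summed collagen and laminin CPM in each comparison for all cells, without cells at 10% or more and without cells at 3% or more of fibroblast or mesothelial markers; bars are 95% counting intervals. The lactate value is -2.29, 2.76 and -0.40, and the AZD3965 value 1.41, -4.09 and -0.75.

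Genes that act on the chains were described from lists of known function. Of 11 measured genes of propeptide cleavage and cross-linking with at least 10 counts, 9 were more than 2-fold lower in lactate cells and none higher, beside the 22.0% and 15.1% of all genes. Their sum was 962 CPM in Lactic29 and 0 to 111 CPM in the other lactate cells, against 2818 CPM in CTL32, 1370 CPM in CTL30 and 0 to 352 CPM in the other control cells. Without CTL30 and CTL32, 3 of 11 were lower and 4 higher, beside 15.2% lower and 23.1% higher among all 10836 genes. Without Lactic29 as well, 8 of 8 were lower, beside 18.3% lower and 19.9% higher among all 10477 genes. The list then summed to 27.4 CPM in lactate cells against 124 CPM in control cells, where CTL31 had 352 CPM and CTL33 264 CPM. For each set of cells, the same shares of all genes stand beside the lists that follow. Bmp1, the procollagen C-proteinase, was at 62.8 CPM in lactate cells against 207 CPM in control cells. All of its lactate counts came from 1 cell, and its control counts from 3. Of 9 basement membrane partners 7 were lower, among them Sparc, a collagen-binding protein, at 140 CPM against 1237 CPM in control cells, and 1 was higher. Sparc is also on the fibroblast list. Without CTL30 and CTL32, 2 of 8 partners were lower and 3 higher, and without Lactic29 as well 5 of 6 were lower and 0 higher. Of 16 genes of folding and modification 5 were lower and 1 higher, and without CTL30 and CTL32 1 of 15 was lower and 5 higher. Without Lactic29 as well, 2 of 14 were lower and 3 higher. Serpinh1, the collagen chaperone, was at 61.2 CPM in lactate cells against 310 CPM, with a count in 2 lactate and 4 control cells, whereas P4hb, a subunit of prolyl hydroxylase, had counts in all 16 cells, at 564 CPM against 789 CPM. Of 13 receptors for the chains 5 were lower and 1 higher. Without CTL30 and CTL32, 1 of 10 was lower and 3 higher, and without Lactic29 as well 1 of 8 was lower and 2 higher. Itgb1, the beta subunit of the collagen and laminin integrins, had counts in all 16 cells, at 337 CPM in lactate cells against 401 CPM in control cells. Ddr1, a collagen receptor kinase, was found in 1 lactate and 3 control cells, at 2.30 CPM in lactate cells against 23.1 CPM in control cells. Mrc2, an endocytic collagen receptor, was found in 1 lactate and 2 control cells, with 1 count against 92, nearly all in CTL30.

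Lactate with AZD3965 was set against lactate alone. The chains added up to 1200 counts or 2065 CPM (1949 to 2185) in lactate+AZD cells, against 560 counts or 777 CPM (714 to 844) in lactate cells, a log2 ratio of 1.41 (1.26 to 1.56). W14 held 1180 of the 1200 counts and W5 515 of the 560. Without W14 the log2 ratio was -4.09 (-4.82 to -3.45), without W5 it was 4.75 (4.32 to 5.21), and without W14 and W5 it was -0.75 (-1.59 to 0.04). In this table the count 2 was commoner than the count 1 (10.8% and 3.31% of all entries above 0), so its intervals hold only if each count stands for 1 read. W14 also held 2157 CPM of mesothelial markers, with counts for 7 of 12 of them, and 13139 CPM of fibroblast markers.

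Of 15 chains with at least 10 counts, 10 were more than 2-fold higher in lactate+AZD cells and 2 lower, beside 24.9% higher and 15.6% lower among all 8764 genes. Their median log2 ratio was 2.53, and 0.17 for all genes. 14 of the 15 had over 50% of their counts in 1 cell (93.3%), beside 21.2% of all genes. Without W14 and W5, Lamc1 alone kept 10 counts and was past 2-fold in neither direction, beside 23.0% higher and 20.1% lower among 7738 genes. Col1a2 had 615 counts in lactate+AZD cells, all in W14, against 123 in W5 and 4 in T13 among lactate cells. Col1a1 had 178 counts in W14 against 254 in W5. Col3a1 had 128 counts in W14 against 3 in W5. Col4a1 and Col4a2 were the 2 lower chains, with 19 and 10 counts in W14 against 62 and 38 in W5. Of the other chains found in both cells, Lamb1 had 49 counts in W14 against 8 in W5, Col5a2 24 against 5, Col4a5 18 against 6 and Col5a1 14 against 10. Col6a2, Col6a1, Lama4 and Lama5 had 35, 23, 14 and 12 counts, all in W14. Lamc3, a gamma chain, had 17 counts, all in W14, and none in lactate cells. With 3 counts set for the lactate group it was 7.03-fold higher. The lower limit of its log2 ratio was 2.36. Lamc1 had 25 counts in lactate+AZD cells against 37 in lactate cells, a log2 ratio of -0.26 (-1.05 to 0.52).

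In the technique comparison the chains were few. They added up to 136 counts or 55.7 CPM (46.8 to 65.9) in scMeT-seq cells, against 195 counts or 112 CPM (96.7 to 129) in whole lactate cells, a log2 ratio of -1.01 (-1.33 to -0.68). Without Lactic13 it was -1.73, without Lactic16 -0.66 and without Lactic5 -0.48. Of the 195 counts, 70 were of Col1a2 in the single cell Lactic5. Of 5 chains with at least 10 counts 2 were more than 2-fold higher and 1 lower in scMeT-seq cells, beside 21.7% higher and 20.6% lower among all 9723 genes. The chains resting on 1 cell were 3 of 5, beside 19.8% of all genes. Col20a1, a fibril-associated collagen, had 33 counts in Lactic13. Lamb2 had 9 counts in Lactic13 against 1 in Lactic6. Col18a1 had 29 and 5 counts in Lactic13 and Lactic17, against 1, 13 and 16 counts in the whole lactate cells Lactic5, Lactic6 and Lactic7. Lamc1 had 18 and 25 counts in Lactic14 and Lactic17 and none in the other scMeT-seq cells, against 15, 9 and 36 counts in the whole lactate cells. In whole cells, the lactate group had 195 counts or 112 CPM against 167 counts or 118 CPM (101 to 138) in the control group, a log2 ratio of -0.08 (-0.39 to 0.23). It was 1.51 without CTL4, 0.29 without Lactic6 and -0.61 without either Lactic5 or CTL8, so its direction rested on single cells. Of 3 chains with at least 10 counts, 1 was higher and 0 lower, beside 15.2% and 27.6% of all 9732 genes. The higher one was Col1a2, again from Lactic5. Lamc1 had 60 counts in whole lactate cells against 91 in whole control cells, 80 of them in CTL4, and Col18a1 had 30 against 47, all in CTL4. Most entries of the chains above 0 in this table were single counts (45 of 72).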

How the data were processed

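Full-length cDNA of single cells was made with a modified Smart-seq2 protocol, amplified over 20 cycles, and sequenced without molecular identifiers. The authors trimmed the reads with fastp 0.20.0, aligned them to mm10 with HISAT2 2.1.0 and assigned them to genes with StringTie. The deposited tables hold whole-number counts that were not normalized. Amplified copies of a molecule are thus counted separately.

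The chain genes and the gene lists were chosen with earlier results of these data known. For each group the counts of a gene in all its cells were added, and CPM is that sum per 1000000 counts of the group. Log2 ratios of CPM carry an exact binomial 95% interval conditional on the summed counts, and CPM an exact Poisson interval. A group sum of 0 was set to 3 counts. A chain was called past 2-fold with at least 10 counts over both groups. The rule for named genes was to describe each chain with at least 10 counts in a table by its values or counts. Gene positions and exon lengths came from GENCODE M21. Python 3.11.15, numpy 2.4.6, pandas 2.3.3, scipy 1.17.1 and matplotlib 3.10.9 were used, with edgeR 4.0.16 in R 4.3.3 for TMM factors only. The intervals were tested only on simulated Poisson counts, which hold neither amplified copies nor differences between cells. That check of the code cannot show how well the intervals hold in these data. Alternatives were the mean of per-cell CPM, TMM, other count minimums, thinning, leaving out the chain with the most counts, and leaving out cells.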

Additional observations from a re-analysis of the deposited data

Results flagged for a closer look

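The values here stand far from the other cells of their group. In groups of 4 to 8 cells, 37 sets of values were tried and 23 values stood apart. The limits used would flag about 1 in 20 sets by chance if values followed a normal distribution. These values do not, and a cell that alone has a count of a chain is always flagged, so that rate does not apply here. Nor are these separate trials, since 20 of the 23 came from 4 cells and from measures that overlap. The summed chain level was 3859 CPM in W5, where the other lactate cells of the AZD3965 experiment had 49.3 to 94.2 CPM, 8344 CPM in W14 (others 0 to 120 CPM), 39637 CPM in CTL32 (others 49.9 to 8232 CPM) and 8379 CPM in Lactic29 (others 25.6 to 484 CPM). The number of chains was 10 in W5 (others 1 to 2), 18 in W14 (others 0 to 3) and 24 in Lactic29 (others 2 to 7).

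Fibroblast markers stood apart in the same 4 cells, at 5381 CPM in W5, 13139 CPM in W14, 21320 CPM in CTL32 and 2556 CPM in Lactic29. Lyz2 was low in Lactic29, at 27501 CPM beside 43489 to 53267 CPM in the other lactate cells. Col1a1 was at 1903 CPM in W5, 1259 CPM in W14, 24180 CPM in CTL32 and 3979 CPM in Lactic29. Col1a2 was at 922 CPM in W5, 4349 CPM in W14, 7557 CPM in CTL32 and 2020 CPM in Lactic29. The part of other cells in these values was not tested.

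Col18a1 stood apart in 3 cells in which no fibroblast marker had a count. It was at 87.9 CPM in Lactic28 (others 0 to 25.8 CPM), at 45.5 CPM in the scMeT-seq cell Lactic13 (others 0 to 7.37 CPM) and at 22.1 CPM, from 2 counts, in F18 (others 0). Markers of other cell types did occur. Lactic28 held the smooth muscle and pericyte markers Cnn1, Myl9 and Acta2 at 75.7, 48.8 and 39.1 CPM, and Lactic13 held the endothelial marker Vwf at 51.8 CPM.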

How the results depend on the processing

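The log2 ratio of the summed chains, lactate over control, was -2.37 with the mean of per-cell CPM, -2.21 with TMM, -1.91 without Col1a1, 2.76 without the cells at 10% or more of fibroblast or mesothelial markers, and -0.40 without those at 3% or more. For lactate+AZD over lactate the values were 1.04, 1.25, 0.74 (without Col1a2), -4.09 and -0.75. Lactate over control in whole cells gave 0.53 without Lamc1. TMM shifted all log2 ratios by 0.08, -0.16, 0.01 and 0.19 in the 4 comparisons, in the order lactate, AZD3965, technique and whole cells. Leaving out each cell gave -5.45 to -0.19 for lactate, -4.09 to 4.75 for AZD3965 (4.75 without W5), -1.73 (without Lactic13) to -0.48 (without Lactic5) for scMeT-seq and -0.61 (without CTL8 or Lactic5) to 1.51 (without CTL4) for whole cells.

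Without the cells at 10% or more, these chains turned round in lactate over control: Col3a1 4.49, Col5a2 0.80, Col4a4 1.85, Col5a1 3.50, Lama5 1.22, Col24a1 0.66, Col15a1 2.26, Col1a2 2.72, Col4a2 4.98, Col6a2 1.26, Col6a1 2.40, Col1a1 3.68, Lamb1 2.85 and Col4a5 1.94. For Col15a1, Col6a2, Col6a1 and Lamb1 the control sum was then 0, and 3 counts stood in for it. All lactate counts of Col1a1, Col3a1, Col5a2, Col6a1, Col6a2, Col15a1 and Lama5 came from Lactic29. Col1a2 turned to -4.69 in lactate+AZD over lactate. There 3 counts stood in for a sum of 0, against 127 counts in lactate cells, 123 of them in W5. Without the cells at 3% or more, Col4a4 was at 2.05, Col5a1 at 1.38, Col4a2 at 4.24 and Col4a5 at 1.61 in lactate over control.

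Chains more than 2-fold higher with lactate were 1 of 24 with at least 30 counts (12.4% of all genes), 6 of 40 with at least 1 count (17%), 19 of 25 without the cells at 10% (23.1%) and 7 of 14 without those at 3% (19.9%). Chains more than 2-fold lower were 3 of 25 (15.2%) and 6 of 14 (18.3%) without those cells. With AZD3965, 4 of 8 were higher with at least 30 counts (18.5%), 0 of 6 without the cells at 10% (20.5%) and 0 of 1 without those at 3% (23.0%). Lower were 4 of 22 with at least 1 count (14.6%), 5 of 6 without the cells at 10% (21.6%) and 0 of 1 without those at 3% (20.1%). With at least 1 count, 10 of 26 were higher and 10 lower in scMeT-seq cells (25.0% and 24.1%), and 10 of 32 higher and 8 lower with lactate in whole cells (18.3% and 30.7%). With at least 30 counts, 1 of 4 was higher in scMeT-seq cells (19.0%). Leaving out each cell gave 1 to 11 higher and 12 to 23 lower with lactate, 0 to 14 higher and 0 to 5 lower with AZD3965, 0 to 2 higher and 1 to 2 lower in scMeT-seq cells, and 0 to 2 higher and 0 to 2 lower with lactate in whole cells. The counts of 11 and 12 were those without CTL32, the 0 higher and 5 lower with AZD3965 those without W14, and the 14 higher and 0 lower those without W5. The set without W14 is the AZD3965 set without the cells at 10% above. For the other omissions of a cell the share of all genes past 2-fold was not computed. These ranges therefore show only how the counts of chains depend on single cells.

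Chains with a count were 18 in lactate and 23 in control cells without the cells at 3%, against 31 and 35 in all cells. They were 4 in lactate+AZD and 4 in lactate cells, against 20 and 12 in all cells. At least 5 counts in a cell left 4 chains in scMeT-seq, 5 in whole lactate and 2 in whole control cells. Without the cells at 3%, 13 of 14 chains with at least 10 counts in the lactate table rested on 1 cell. In the AZD3965 table it was 0 of 1, since Lamc1 alone kept 10 counts, so the tables cannot be compared in this. The share of all genes resting on 1 cell was not computed under this limit. In the lactate table, Col1a1 with Col1a2 and Col4a1 with Col4a2 were then found in 1 cell each, and Col5a1 with Col5a2, Lamb1 with Lamc1 and the 3 collagen VI chains in 0. In the AZD3965 table each pair was found in 0. Thinning each cell to the smallest total of its table changed no group's number of chains by over 1.5 times, and of the single cells only CTL34 changed by more, to 1 chain against 2. The 3% limit, and leaving out the 10% cells for single chains and counts of chains, were chosen after seeing the data, as were both for the gene lists.

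No paired analysis was possible because the numbers in the cell names identify cells and no source ties them to a shared animal or culture. Depth limits low chains: 3 counts equal 5.16 CPM over the lactate+AZD cells and 4.16 CPM over the lactate cells beside them.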
